A study of Arabidopsis thaliana with 12 samples.

Results

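The nitrate response of tga1/tga4 double mutant roots of Arabidopsis thaliana was taken as the difference between 3 samples treated with 5 mM KNO3 and 3 samples treated with 5 mM KCl, the control salt. These were 6 of the study's 12 samples, each measured on 1 Affymetrix array, and all 22746 probe sets other than the array's own controls were compared. The remaining 6 arrays, 3 per salt, measured wild-type (Col-0) roots and are used here only for comparison. Seedlings of both genotypes had grown for 14 days in hydroponic medium with 0.5 mM ammonium succinate as the nitrogen source and 3 mM sucrose, in cycles of 16 h light and 8 h dark at 22 °C. On day 15, as the lights came on, the salt was given, and roots were cut 2 h later. Ammonium and sucrose were therefore common to the 4 groups, and potassium was added to all of them. The labels name the mutant by its disrupted genes and give no alleles or lines, and they do not say what separated the replicates of a group. The p-values below therefore reflect how far these samples differ from each other, which can include technical differences.

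Nitrate is both a nutrient and a signal for plant roots. It is taken up by transporters, reduced to nitrite by nitrate reductase in the cytosol and then to ammonium by nitrite reductase in plastids, and built into amino acids. Reductant for this comes largely from the oxidative pentose phosphate pathway in roots, and the carbon skeletons come from glycolysis and the tricarboxylic acid cycle. TGA1 and TGA4 are bZIP transcription factors known in Arabidopsis roots as regulators of part of the nitrate response, including genes of nitrate transporters.

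Values are log2 units, so that a difference of 1 is 2-fold, and the medians of the 6 mutant samples lay between 2.21 and 2.38. Of the probe sets, 13513 could be assigned to a single gene, while 503 matched more than 1 gene and 8730 are given by identifier only. TGA1 and TGA4 were not among the genes named. Whether an unnamed probe set measures them was not tested, so the mutant labels were not checked on them. Of 14 root cell type markers, 1 was measured under its name (AT1G62500, at 3.93 ± 0.70 under KCl and 3.32 ± 0.61 under KNO3, mean ± SD, n = 3 each), and of 14 markers of green tissue only RCA, at 4.22 ± 0.35 and 3.88 ± 0.18, so the tissue could not be checked on lists of markers. A principal component analysis of the 6 mutant samples used the brighter 50% of probe sets. It placed the salts apart on the first component (58.2% of the variance, KCl samples from -37.1 to -30.1 and KNO3 samples from 24.1 to 43.1). On the second component (19.6%) both samples numbered 3 lay apart, at -25.1 under KCl and -28.1 under KNO3, against 3.93 to 24 for the other 4. Values without those 2 samples are given below where they change a call that is described.

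Nitrate changed 1165 of the 22746 probe sets in mutant roots, which is 5.12% of those tested (limma, Benjamini-Hochberg adjusted p under 0.05, called below). Of these, 722 rose (3.17%) and 443 fell (1.95%), and at the level of named genes 352 of 13355 rose (2.64%) and 227 fell (1.7%). The rises reached further than the falls. Among called probe sets 473 rose and 214 fell at least 2-fold, 184 rose and 33 fell at least 4-fold, 62 rose and 4 fell at least 8-fold, and 27 rose and 0 fell at least 16-fold. In each of the 1165 the 3 KNO3 samples lay wholly on one side of the 3 KCl samples, as did those of 19.6% of all probe sets. The median change over all probe sets was -0.01. Leaving out KNO3 replicate 1 lowered the count to 720, and leaving out both samples numbered 3 lowered it to 770, while 648 probe sets, 463 higher and 185 lower, stayed called whichever 1 of the 12 samples was left out. In wild type the same contrast called 1253 probe sets (5.51%), and 815 were called in the same direction in both genotypes, which have no samples in common, although same-numbered samples of the genotypes deviated together within each salt.

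**Figure D1:**
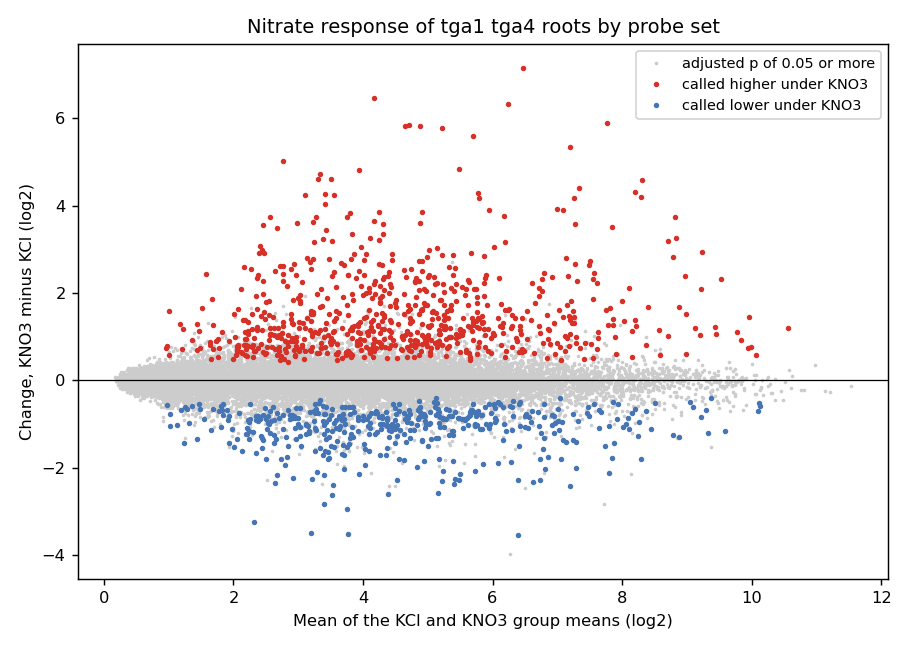
Change between salts (vertical axis, log2, KNO3 minus KCl) against the mean level of the 2 group means (horizontal axis, log2) for each of the 22746 probe sets in tga1 tga4 roots. Red points are the 722 probe sets called higher, blue points the 443 called lower and grey points the rest, and the rises extend to 7.14 while no called fall passes -3.55.

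The named gene with the highest rise was AT2G48080, which stood at 1.11, 1.03 and 0.66 in the KCl samples and at 7.67, 7.22 and 7.29 in the KNO3 samples. The difference was 6.46 ± 0.20 (log2 change ± SE, 95% interval 6.03 to 6.90, adjusted p = 3.92e-09, limma). AT3G07350 went from 1.97, 1.74 and 1.63 to 7.94, 7.66 and 7.30, a rise of 5.85 ± 0.17. All 3 samples of each salt lay close together in both genes, and the groups were far apart. AT4G32950, a type 2C protein phosphatase, rose by 5.83 ± 0.32 and AT5G10210 by 5.82 ± 0.15. Paralogous genes for HPP-family membrane proteins rose together. AT5G62720 went from 1.20 ± 0.22 to 5.80 ± 0.20 (mean ± SD, n = 3), and AT3G47980 rose by 4.81 ± 0.26 and 4.17 ± 0.25 on its 2 probe sets. Proteins of this family are known in Arabidopsis to carry nitrite into chloroplasts. AT5G19970, AT1G49500 and AT1G67910 rose by 4.71, 4.26 and 4.23. In most of these genes the KCl mean lay under 2.32, the middle of the sample medians. No background level or detection call was used, so at such low levels signal and background cannot be told apart with these data. The fold given for these genes is uncertain. The KCl mean lay under 2.32 for 160 of the 722 probe sets that rose, and the KNO3 mean for 89 of the 443 that fell.

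**Figure D2:**
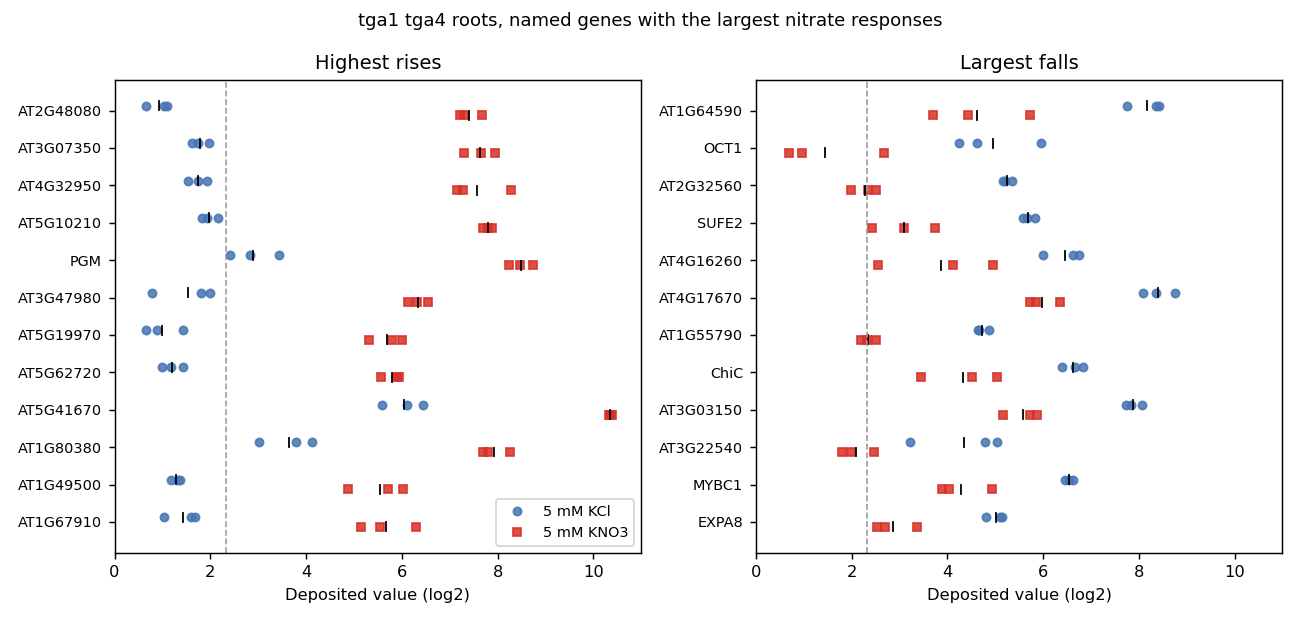
Deposited log2 values (horizontal axis) in the 3 KCl (blue circles) and 3 KNO3 (red squares) samples of tga1 tga4 for the 12 named genes with the highest rises (left) and the 12 with the largest falls (right), with a black tick at each group mean and a dashed line at 2.32, the middle of the 6 sample medians. The 2 salts do not overlap in any of the 24 genes, and the KCl values of most genes on the left lie left of the dashed line.

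Large rises were also found in genes with both group means above that level. AT5G41670, a 6-phosphogluconate dehydrogenase of the oxidative pentose phosphate pathway, went from 6.45, 6.12 and 5.60 to 10.35, 10.33 and 10.38, a 19.7-fold rise. PGM (AT1G78050), a phosphoglycerate mutase, stood at 2.41, 2.84 and 3.44 under KCl and at 8.47, 8.24 and 8.74 under KNO3. Its rise of 5.59 ± 0.24 corresponds to 48.1-fold, and because its KCl values lay close to 2.32 this fold is uncertain too. AT1G80380, glycerate kinase, rose by 4.28 ± 0.29 from 3.64 ± 0.56. AT4G36010, of the thaumatin family, and BAT1, an acyltransferase that acts on brassinosteroids, rose by 3.90 ± 0.38 and 3.76 ± 0.35. The interaction, which is the mutant response minus the wild-type response, had 95% intervals that included 0 for each of these genes, for example -0.53 to 0.57 for AT5G41670 and -0.86 to 0.62 for PGM.

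The highest rise of all belonged to a probe set that the gene table does not name. Of the 20 probe sets with the highest rises, 10 had no gene. Probe set 260623_at went from 2.85, 3.02 and 2.83 to 10.05, 9.79 and 10.29, a rise of 7.14 ± 0.27 that is 141-fold. Probe sets 264859_at, 265475_at and 246996_at rose by 6.32, 5.88 and 5.78, and 265475_at was already at 4.83 ± 0.25 under KCl and reached 10.71 ± 0.25. Among those that fell, 247717_at dropped by 3.53 and 250646_at by 2.85, the second with adjusted p = 0.0318, which rose to between 0.0508 and 0.13 when any 1 of wild type KNO3 replicate 1 or the mutant replicates 1 and 3 of either salt was left out.

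Falls among named genes were led by AT1G64590, a member of the family of short-chain dehydrogenases, which stood at 7.76, 8.43 and 8.35 under KCl and at 3.71, 4.44 and 5.72 under KNO3. It fell by 3.55 on the log2 scale (SE 0.42, adjusted p = 0.000275, limma). OCT1 (AT1G73220), an organic cation and carnitine transporter, fell by 3.50 from 5.96, 4.25 and 4.62 to 0.97, 2.67 and 0.70, with an adjusted p of 0.0101 that became 0.0537 without KNO3 replicate 1. AT2G32560, an F-box gene, fell by 2.95 with a tighter spread, from 5.24 ± 0.10 to 2.28 ± 0.26. SUFE2, related to plastid activators of sulfur delivery for iron-sulfur clusters, fell by 2.60. AT4G17670, AT3G03150 and AT1G55790, whose KCl means were 8.40, 7.88 and 4.73, fell by 2.41, 2.29 and 2.39. MYBC1, a MYB-related transcription factor, went from 6.54 ± 0.08 to 4.28 ± 0.57. A pair of hydrolases known from defence against fungi also fell. AT4G16260, a beta-1,3-glucanase, fell by 2.58 and ChiC, a class V chitinase, by 2.30, and the KNO3 sample numbered 3 was the lowest in both. The fall of AT4G16260 (adjusted p = 0.0198) was not called without KCl replicate 2, KCl replicate 3 or KNO3 replicate 1, with adjusted p up to 0.0734. AT3G22540 also fell, by 2.27. The calls of OCT1, AT4G16260, ChiC and AT3G22540 ended when both samples numbered 3 were left out.

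Genes for reductant supply moved in both directions. Of 4 members measured, 2 rose and 1 fell, where 2.64% of named genes rose and 1.7% fell, and the list median was 1.65. AT1G64190, a second 6-phosphogluconate dehydrogenase, went from 7.52, 7.38 and 7.23 to 10.27, 10.19 and 10.13. It rose by 2.82 ± 0.11, where the median SE over all probe sets was 0.164. The third gene of that enzyme, AT3G02360, stood at 8.82, 8.71 and 8.76 under KCl and at 8.26, 8.25 and 8.24 under KNO3. It fell by 0.51 (adjusted p = 0.00794, limma), a small change with no overlap between salts, and its call ended when both samples numbered 3 were left out. AT1G12230, annotated to the same pathway, had a change of 0.48 that did not pass (adjusted p = 0.175).

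Of 6 nitrate regulators measured, 3 rose, where 2.64% of named genes rose. All 3 were GARP-type factors of the HHO group that are known in Arabidopsis to repress genes of nitrate uptake. AT1G25550 (HHO3) went from 3.14, 3.17 and 2.67 to 7.14, 6.87 and 6.51, and AT1G68670 (HHO2) from 2.01, 1.70 and 1.92 to 5.70, 5.99 and 5.45. Both rose by 3.84, and neither group of 3 overlapped the other. AT3G25790 (HHO1) was at 0.67, 0.84 and 0.59 under KCl and spread widely under KNO3, at 4.34, 2.79 and 6.20. Its rise of 3.74 ± 0.84 had an adjusted p of 0.0224, which lay between 0.0574 and 0.0759 without any 1 of the mutant KCl samples or KNO3 replicate 1 or 3. NRG2 (AT3G60320) and AT1G49560, a further member of the HHO group, had changes of 0.17 and -0.10 and did not pass.

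Few transporters of nitrate were measured under a name, 6 of the 23 listed. The counts therefore leave out most of the list, and unnamed probe sets were not assigned to it. Of the 6 members, 1 rose and 0 fell, where 4.34% of named genes were called, and their median was -0.34. The member that rose was AT1G72125 of the NPF family, with a rise of 0.99 ± 0.23 from 2.18 ± 0.55 (adjusted p = 0.0278). That call ended without any 1 of KCl replicates 1 and 3 or of the KNO3 replicates, with adjusted p from 0.0561 to 0.0952. AT1G59740 (0.87) and AT1G68570 (0.36), also of that family, did not pass. The other 3 members, added to the text after their values were seen, had changes below 0 that did not pass either. AT3G21670 stood at 3.26, 3.89 and 3.09 under KCl and at 1.41, 0.93 and 3.01 under KNO3 (-1.63 ± 0.49, adjusted p = 0.0947, limma), with the KNO3 sample numbered 3 next to the KCl samples, and it was called lower in wild type (-1.88, adjusted p = 0.0495). NRT2.5, a high-affinity nitrate transporter, had a change of -1.20 and AT2G26690 one of -1.03. Array quality weights called 2 of the 6 higher and 2 lower. Of the genes for nitrate and nitrite reduction and their cofactors only AT2G43760 (CNX6), an enzyme subunit needed to make the molybdenum cofactor that nitrate reductase carries, was measured under a name. It rose by 1.48 ± 0.15, from 6.09 ± 0.26 to 7.58 ± 0.15. In sulfur assimilation, 1 of 3 members rose. SIR, the plastid sulfite reductase, went from 6.02, 5.47 and 5.84 to 7.39, 7.08 and 8.16 (1.77 ± 0.30, adjusted p = 0.00412), while the ATP sulfurylases APS3 (0.88) and APS4 (-0.13) did not pass.

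Some genes of carbon metabolism rose. Of 10 genes of glycolysis and carbon skeleton supply, 4 rose and 0 fell, where 2.64% of named genes rose and 1.7% fell. The list median was only 0.15 against -0.01 for all probe sets. Besides PGM, a second phosphoglycerate mutase, AT1G22170, went from 2.52, 3.38 and 3.33 to 5.94, 5.62 and 5.94. The mitochondrial isocitrate dehydrogenase subunits IDH-VI and IDH-V rose by 1.5 ± 0.12 and 1.00 ± 0.16. Cytosolic cICDH, which also makes 2-oxoglutarate, stood at 9.68 and 9.67 in the 2 salts, with a change of -0.01 and a 95% interval of -0.28 to 0.25. The enolase ENOC had a change of 0.05 (95% interval -0.37 to 0.47). Neither interval reached the size of the change in the mutases.

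Further lists of central metabolism were written after the values had been seen, and they hold genes noticed among the called ones, so their counts describe the data and support nothing. Of 6 pyruvate kinases, 2 rose, AT5G08570 by 0.97 ± 0.15 and AT5G56350 by 0.98 ± 0.11, while AT5G63680 had a change of 0.18. Of 6 genes of pyruvate dehydrogenase complexes, 3 rose, and all 3 encode subunits of the mitochondrial complex. AT3G13930 and AT1G54220, for the acetyltransferase subunit, rose by 1.58 ± 0.19 and 1.52 ± 0.20, and MAB1, for a subunit of the decarboxylase, went from 7.48, 7.61 and 7.69 to 8.69, 8.59 and 8.90. The acetyltransferase gene LTA3 (0.60, adjusted p = 0.0621) missed the threshold, and AT2G34590, for a subunit of the plastid complex, had a change of 0.01. Of 15 genes of the tricarboxylic acid cycle, 3 rose, the 2 isocitrate dehydrogenase subunits counted above and SDH1-2, a succinate dehydrogenase subunit, by 0.78 ± 0.18. The call of SDH1-2 (adjusted p = 0.0249) ended without any 1 of KCl replicates 1 and 2 or KNO3 replicates 1 and 3. AT2G20420 and AT5G08300, for subunits of succinyl-CoA ligase, had changes of 0.36 and 0.10.

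Of 5 genes of branched-chain amino acid synthesis and transamination, 3 rose. AT3G58610, ketol-acid reductoisomerase, went from 8.16, 8.14 and 8.39 to 9.82, 9.61 and 9.80. AT2G31810, for a regulatory subunit of acetolactate synthase, rose by 1.5 ± 0.20, and AT1G50110, an aminotransferase, by 1.93 ± 0.14. AT3G23940, dihydroxyacid dehydratase, had a change of 0.30 and ATBCAT-5 one of -0.19, and neither passed. A gene of amino acid breakdown, chosen after its values were seen, fell. AT4G33150, for the bifunctional enzyme that starts lysine degradation, went from 4.94, 4.82 and 5.63 to 3.15, 3.42 and 3.67 (adjusted p = 0.00167, limma). Plastid NAD-dependent malate dehydrogenase (MDH, AT3G47520), chosen in the same way, rose by 2.28 ± 0.15 from 6.16 ± 0.26.

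Plastid redox control and phospholipid head groups were also covered by lists written after the values had been seen, so the counts describe the data only. Of 4 peroxiredoxins and thioredoxin reductases, 2 rose. AT3G52960, a plastid peroxiredoxin, went from 5.79, 5.85 and 6.27 to 8.18, 8.15 and 8.73, and NTRC, a plastid thioredoxin reductase, from 2.94, 2.2 and 2.36 to 4.14, 4.14 and 4.25. The plastid peroxiredoxin AT3G11630 (-0.31) and mitochondrial PRXIIF (0.04) did not pass. Both measured phosphoethanolamine methyltransferases, enzymes of phosphocholine synthesis, rose, AT1G73600 by 3.86 ± 0.52 and PMEAMT (AT1G48600) by 2.73 ± 0.19. Of 5 ERF-type factors of the DREB A-6 subgroup, 2 rose, AT4G39780 by 3.35 ± 0.31 and AT2G22200 by 1.66 ± 0.17, and the other 3 members had means under 2 in both salts and did not pass.

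**Figure D3:**
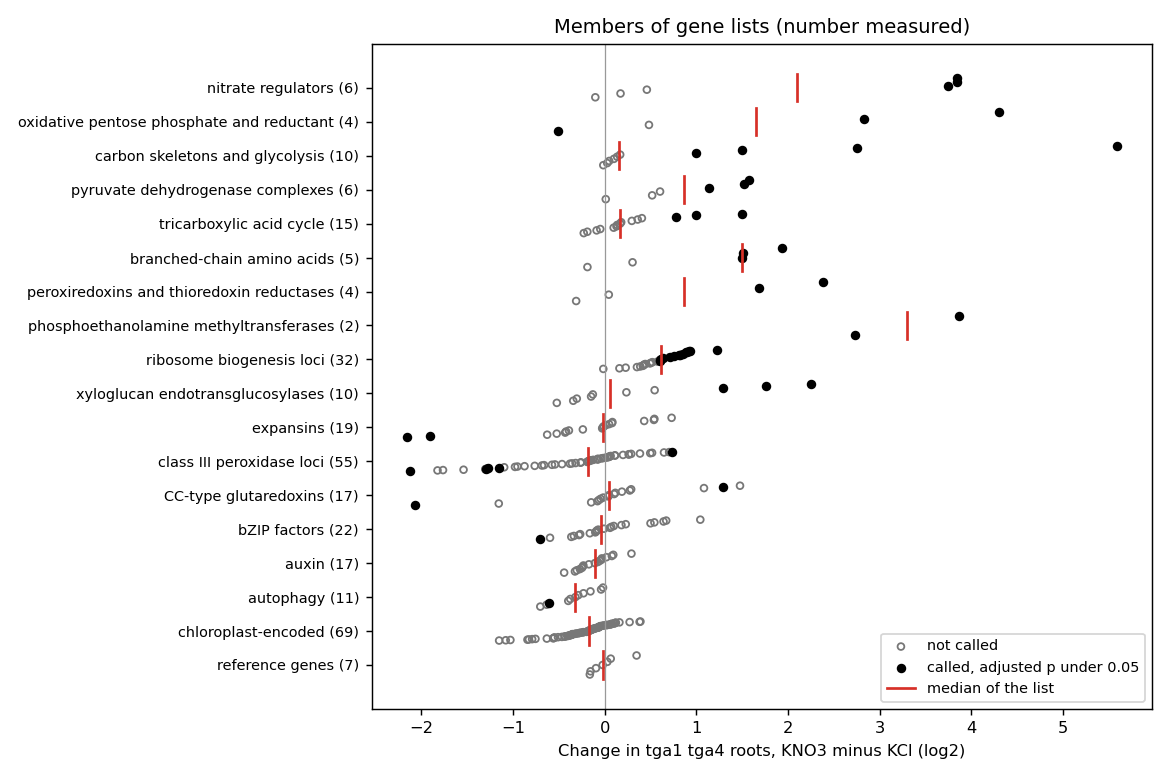
Change in tga1 tga4 roots (horizontal axis, log2, KNO3 minus KCl) for each measured member of 18 gene lists (rows, with the number measured). Filled points passed an adjusted p of 0.05, open points did not, and the red bar is the list's median. Called members of the metabolic lists lie between 0.78 and 5.59 apart from AT3G02360, whereas the called expansins and CC-type glutaredoxins lie at -2.15 and -1.91 and at -2.07 and 1.29.

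Some genes for making ribosomes rose by small amounts. Of 32 loci measured from a list of 51, also written after the values had been seen and including genes noticed among the called ones, 14 rose and 0 fell, against 2.64% of named genes called higher. The list median was 0.61, 31 of 32 changes were above 0, and in 25 the KNO3 samples lay above all KCl samples, where the salts did not overlap in 19.6% of all probe sets in either direction. The choice of loci favours such counts, so they describe the data and support nothing. AT5G14050, a WD40-repeat protein, went from 4.35, 4.61 and 4.25 to 5.68, 5.43 and 5.79, and its rise of 1.23 ± 0.17 (adjusted p = 0.000926, limma) was the highest in the list. YAO, a nucleolar protein, rose by 0.92 ± 0.20 and AT3G10530 by 0.90 ± 0.16. AT4G25730, an FtsJ-like RNA methyltransferase, rose by 0.93 ± 0.24 at an adjusted p of 0.0495, a call that held only without wild type KCl replicate 1 or 3, mutant KCl replicate 3 or mutant KNO3 replicate 2 (adjusted p up to 0.195 without any other sample). Homologues of proteins known from yeast ribosome assembly, chosen after their values were seen, also rose. AT5G14520 (Pescadillo) rose by 0.60, AT3G22660 (Ebp2) by 0.83, AT5G66540 (Mpp10) by 0.89 and AT1G06720 (Bms1) by 0.64. Of the members named so far AT5G14050, AT3G10530 and AT3G22660 kept their calls in all 12 omissions of 1 sample, while 1 or more mutant samples each ended the others. AT2G40360 (Bop1) and AT3G03920 (Gar1), the brightest members that did not pass, had changes of 0.42 (adjusted p = 0.145) and 0.44 (0.279).

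In wild type 2 of the same 32 loci rose, where 2.74% of named genes rose and 1.81% fell, and the median wild-type change was 0.23. The interaction was above 0 for 32 of 32 loci, with a median of 0.37 and a range of 0.08 to 0.85, and above 0 for 51.6% of all probe sets, but it was called for 0 of the 32 (limma, smallest adjusted p 0.999), with 7 at an unadjusted p under 0.05. These loci share all their samples and rose together, so the 32 signs are not separate observations. The list also holds loci noticed for their mutant calls, and the interaction contains that same mutant change. That choice alone favours interactions above 0, so their number and median support no difference between genotypes. The list's median level was 3.31, 3.72 and 3.56 in the mutant KCl samples and 4.39, 4.20 and 4.45 in the mutant KNO3 samples. In wild type it was 3.43, 3.91 and 4.08 under KCl and 4.11, 4.26 and 4.53 under KNO3. The salts did not overlap in either genotype, and the KCl samples numbered 1 were the lowest of both. The count of 14 fell to 6 without KCl replicate 1, to 7 without KCl replicate 3 or KNO3 replicate 2, to 5 without KNO3 replicate 1, to 4 without both samples numbered 3 and to 7 in a fit of the mutant samples alone. The list median stayed between 0.59 and 0.68 over those omissions of 1 sample.

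**Figure D4:**
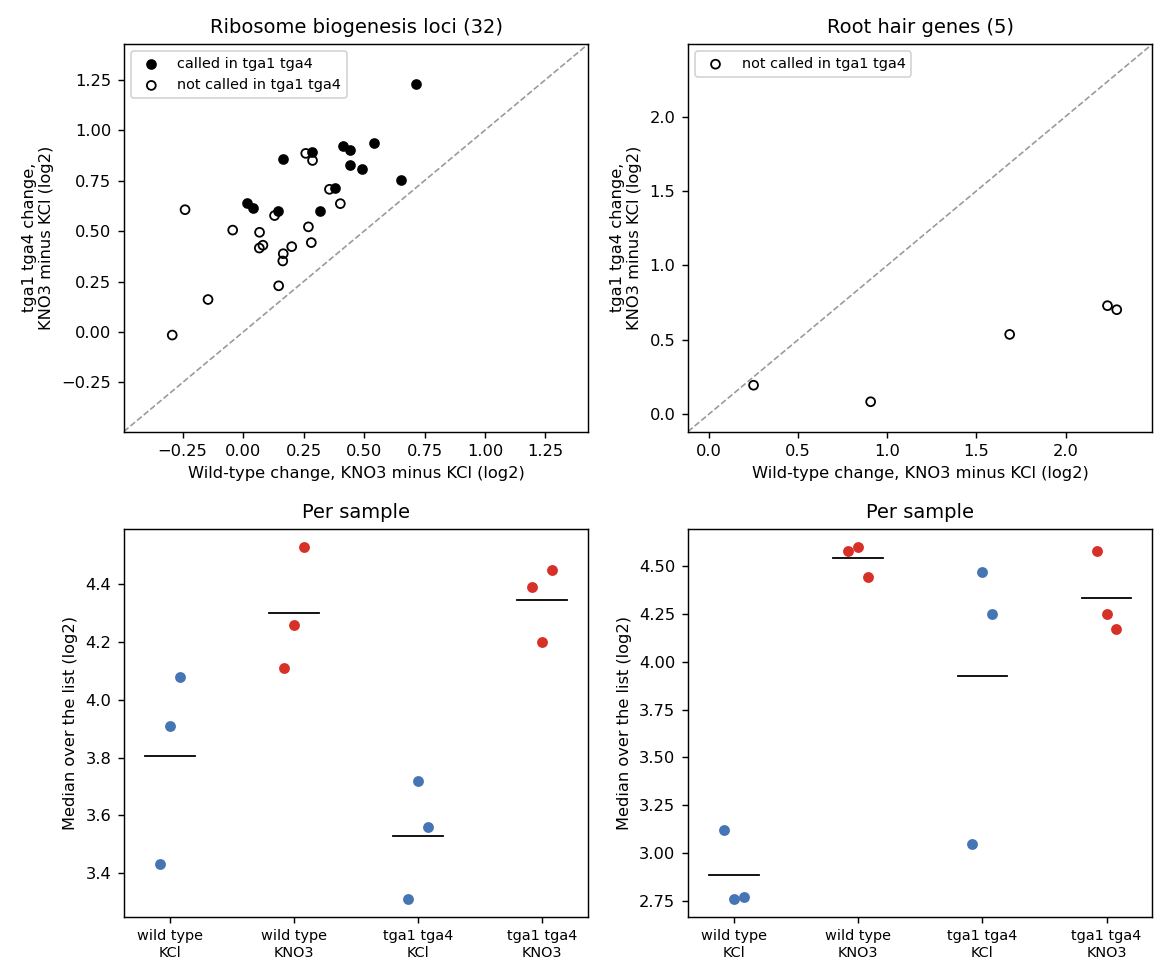
Top, change in tga1 tga4 (vertical axis) against change in wild type (horizontal axis), both KNO3 minus KCl in log2, for 32 ribosome biogenesis loci (left) and 5 root hair genes (right), with filled points for members called in tga1 tga4 and a dashed line where the 2 changes are equal. Bottom, the median level of the same list (log2) in each of the 12 samples with a bar at each group mean. All ribosome biogenesis loci lie above the line and all root hair genes below it, and the mutant KCl samples of the root hair list spread from 3.05 to 4.47. The ribosome list includes loci noticed among the mutant calls, which by itself favours points above the line.

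A few cell wall genes passed in either direction, where 2.64% of named genes rose and 1.7% fell. Of 10 xyloglucan endotransglucosylases, enzymes that cut and rejoin xyloglucan, 3 rose and 0 fell, with a list median of 0.05. XTH20 went from 3.63, 4.85 and 5.07 to 6.70, 6.11 and 7.47 (2.25 ± 0.43, adjusted p = 0.00867). XTH32 rose by 1.76 ± 0.41 and XTH21 by 1.29 ± 0.28, and both calls (adjusted p = 0.027 and 0.0197) ended without any 1 of the replicates numbered 1 and 3 of either salt in the mutant. XTH18 and EXGT-A3, the brightest members that did not pass, had changes of -0.13 and -0.34. Of 19 expansins, proteins that loosen the wall, 2 fell and 0 rose, with a list median of -0.02, and 0 of 5 extensins and proline-rich proteins passed (limma, 0 at an unadjusted p under 0.05). EXPA8 went from 4.81, 5.14 and 5.11 to 2.69, 2.53 and 3.37, a fall of 2.15 ± 0.26 (adjusted p = 0.000349), and the expansin-like EXLB1 fell by 1.91 ± 0.28 from 7.04 ± 0.19. EXPA4 and EXPA15 had changes of -0.43 and -0.02, the latter with an interval from -1.57 to 1.53. In wild type EXPA8 changed by -0.94 (adjusted p = 0.0646), and its interaction of -1.21 (95% interval -2.02 to -0.40) was not called after adjustment (adjusted p = 0.999).

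Of the 5 root hair genes measured, none was called in the mutant (limma, 1 at an unadjusted p under 0.05), while 3 were called in wild type. Over all named genes, 4.34% were called in the mutant and 4.55% in wild type. AT4G26010, a peroxidase of root hairs, stood at 5.45, 6.48 and 6.32 under KCl and at 7.04, 6.56 and 6.76 under KNO3 in the mutant (0.70 ± 0.25, adjusted p = 0.167), against a wild-type rise of 2.29. EXPA18 changed by 0.73 in the mutant and rose by 2.23 in wild type. All 5 interactions were below 0, with a median of -1.15, where 51.6% of all probe sets had one above 0, and none was called. The 5 genes share all their samples, so the 5 signs are not separate observations. The list's median level was 3.05, 4.47 and 4.25 in the mutant KCl samples, so replicate 1 lay with the wild-type KCl samples (2.76 to 3.12) and replicates 2 and 3 lay near the KNO3 samples (4.17 to 4.58 in the mutant). HRGP1, a cell wall glycoprotein of the extensin type, differed likewise, with 6.12 and 6.21 in the mutant and a wild-type rise of 1.57, and its interaction of -1.49 had an adjusted p of 0.957. Its probe set carries the suffix the array maker uses for probes that may match several genes, so its signal may be shared with other extensins.

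Class III peroxidases are secreted enzymes that act on phenolics and cell walls. Of 55 loci in a list written after the values had been seen, 4 fell and 1 rose, where 1.7% of named genes fell and 2.64% rose, and the list median was -0.18. Because the list was written with the values known, these counts describe the data only. An earlier list of peroxidases, not limited to this class, had 10 genes measured and 0 called (limma, 2 at an unadjusted p under 0.05). The locus that rose was AT1G34510, by 0.74. AT4G36430 went from 8.97, 8.62 and 9 to 6.66, 7.16 and 6.39, and AT3G21770 from 9.51, 9.48 and 9.58 to 8.03, 8.27 and 8.37. AT5G64100 fell by 1.27 ± 0.17 and AT5G15180 by 1.15 ± 0.28, the latter with a call (adjusted p = 0.0365) that ended without any 1 of mutant KCl replicates 2 and 3, mutant KNO3 replicates 1 and 2, and in wild type KCl replicate 3 and KNO3 replicate 2. In wild type 5 loci of the list rose and 2 fell, where 4.55% of named genes were called. The brightest members that did not pass were PRXR1, at 10.70 and 10.51, and AT3G01190, at 8.54 and 8.74.

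Few listed members of other regulatory families passed, where 4.34% of all named genes were called. Of 22 bZIP factors measured from a list of that family, to which TGA1 and TGA4 belong, 1 fell, bZIP44 by 0.70 ± 0.15. Its adjusted p of 0.018 exceeded 0.05 without any 1 of the mutant samples other than KCl replicate 3. The list does not hold the whole family, and HYH, a bZIP factor outside it, rose and is described in the closing observations. BZIP53 (0.54) and BZIP60 (-0.34) did not pass. Of 17 CC-type glutaredoxins, small redox proteins known in Arabidopsis to bind TGA factors, 1 rose and 1 fell, and the list median was 0.04. AT4G33040 went from 6.74, 6.81 and 6.73 to 4.41, 4.34 and 5.31, and AT3G62930 from 0.49, 0.47 and 0.65 to 1.3, 1.93 and 2.24, which is below the sample medians throughout. Of 7 WRKY factors, WRKY47 fell by 0.91 ± 0.12, and of 7 bHLH factors, bHLH34 rose by 1.52 ± 0.24. WRKY20, at a change of -0.61 and an adjusted p of 0.05, was just outside the threshold, and AT5G41400, at -0.65 and 0.0498, just inside.

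Hormone genes measured under a name numbered few, and 4.34% of all named genes were called. None of 17 auxin genes was called (limma, 1 at an unadjusted p under 0.05), nor in any omission of 1 sample, and GH3.17, the brightest, had a change of 0.29. Neither of 2 cytokinin genes was called (limma, 0 at an unadjusted p under 0.05). Of 2 ethylene genes RTE1, known in Arabidopsis as a negative regulator of ethylene responses, went from 4.43, 4.62 and 4.61 to 3.73, 4.16 and 3.63, and this fall (adjusted p = 0.00914, limma) was not called without KNO3 replicate 1 (0.0523), without both samples numbered 3 or in a fit of the mutant samples alone. The gibberellin receptor GID1B fell by 0.80 ± 0.15, while GID1A (-0.32) and GID1C (-0.26) did not pass. Of 48 glycosyltransferases 1 rose and 1 fell, UGT84A4 by 1.18 and UGT71C3 by -1.18, and of 26 P450 and similarly named genes CYP78A9 rose by 3.62 ± 0.45 and CYP71B23 fell by 1.29 ± 0.26. The call of UGT84A4 ended without any 1 of mutant replicates 1 and 3 of either salt, and that of CYP71B23 without mutant KCl replicate 3 (adjusted p = 0.0529). GSTU21 rose by 1.07 ± 0.16 as 1 of 13 glutathione transferases, and SWEET16, a sugar transporter of the vacuole, by 1.22 ± 0.21 as 1 of 15 sugar transporters. Among 11 autophagy genes ATG8D fell by 0.61 ± 0.16 with an adjusted p of 0.0487, a call that held only without wild type KCl replicate 1 or 2 or mutant KNO3 replicate 3. Of 9 calcium sensors and kinases CML43 fell by 1.00 ± 0.26 (adjusted p = 0.0468), and its call held only without wild type KNO3 replicate 2 or 3 or mutant KNO3 replicate 2. None of 17 signalling peptide genes, 6 low-oxygen genes or 3 iron genes was called (limma, 4, 0 and 0 at an unadjusted p under 0.05). None of 69 chloroplast-encoded genes was called (limma, 2 at an unadjusted p under 0.05), and none of 7 reference genes, with PEX4 at 7.14 and 7.11 and GAPC2 at 10.80 and 11.15 in the 2 salts.

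Across all 22746 probe sets the interaction was called for 1 (0.0044%), and 683 (3%) had an unadjusted p under 0.05. With same-numbered samples of the genotypes as a random block within each salt, 2 were called, 250463_at and 247199_at, which also has no gene named. That probe set, 250463_at, has no gene named and was not called in the mutant, at 0.43, 0.84 and 0.59 under KCl and 0.76, 0.79 and 1.05 under KNO3, while it rose by 2.63 in wild type. All its mutant values lay under 2.32, where signal and background cannot be told apart, so the data do not show whether the mutant response or only the mutant level differed. Whether 250463_at or 247199_at measures one of the disrupted genes was not tested. The call of 250463_at ended with a replicate block, against a 2-fold change, without wild type KCl replicate 3, without mutant KNO3 replicate 1 and without both mutant samples numbered 3. For the other probe sets the data leave a range rather than equality. The 95% interval of the interaction reached 0.51 to either side of its estimate in the median probe set, and 0.59 in the median of those called in the mutant.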

How the data were processed

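Total RNA of 12 root samples was hybridised to single-channel arrays. The deposited table held log2 values per probe set, which follows from the values themselves, and the background correction, normalization and summary behind them are not given in the sources used here. These deposited log2 values were used as they stood. The 64 control probe sets were left out of 22810, and symbols and loci follow the supplied gene table, with 13436 single-gene probe sets matched to RefSeq (TAIR10.1) for names only. A gene with several probe sets was counted through the brightest.

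The 4 group means were estimated jointly from the 12 samples in limma 3.58.1 (R 4.3.3, no intensity trend). KNO3 minus KCl was tested in each genotype, and the interaction between them, two-sided, with Benjamini-Hochberg adjustment over 22746 probe sets at 0.05. Within a salt, deviations from the group mean correlated between same-numbered samples of the genotypes at 0.53, 0.34 and 0.50 under KCl and at 0.28, 0.64 and 0.73 under KNO3, so the numbers paired the genotypes, a pairing that comes from the data and not from the labels. The block for this pairing was random, shared by both genotypes within a salt and number. The number of arrays limits the precision. The median SE was 0.164 for a change and 0.232 for the interaction. Simulated data had independent normal noise and 200 of the 22746 probe sets changed. On them the mutant contrast called 14.8%, 72%, 98.4% and 99.2% of probe sets given changes of 0.5, 1, 2 and 3 (log2), and 4.66% of its calls were false. The simulation held neither the correlation of same-numbered samples nor as many changed probe sets as were called here, so these shares need not hold for the real contrast.

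The members and lists were chosen with earlier results of these data known, and 9 of the lists were written after the values had been seen. Genes were named by a rule. It took the 12 highest and 12 lowest called genes, the 8 highest and 8 lowest with both means above the middle of the sample medians, up to 4 called and 2 uncalled members of lists with 3 or more measured, called interactions, 4 rising and 2 falling unnamed probe sets, and the genes next to the threshold. For the lists written later the rule was applied in the same way. Outside it, MDH, AT4G33150, PMEAMT, AT5G14520, AT3G22660, AT5G66540, AT1G06720 and the genes in the closing observations were chosen after their values were seen. AT3G21670, NRT2.5, AT2G26690 and RTE1 were added in the same way. AT2G43760, AT1G62500 and RCA are shown as the sole measured members of their lists. Versions of Python (3.11.15), pandas (2.3.3), numpy (2.4.6) and matplotlib (3.10.9) served for summaries and plots. Promoter motifs were not analysed here, and no summed marker score was tested because too few markers were named.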

Additional observations from a re-analysis of the deposited data

Results flagged for a closer look

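Probe set 250463_at, which has no gene named, stood out because the difference between genotypes in its change between salts passed a direct test. The interaction, mutant response minus wild-type response, was -2.38 (95% interval -2.88 to -1.88, adjusted p = 0.00731, limma). In the mutant it stood at 0.62 ± 0.21 under KCl and 0.87 ± 0.16 under KNO3 (mean ± SD, n = 3 each, log2), which is below the medians of the samples. In wild type it went from 2.67 under KCl to 5.30 under KNO3. At the mutant level signal and background cannot be told apart, so the interaction sets a wild-type change against mutant values near the floor. It does not show how the mutant responded. Whether this probe set measures one of the disrupted genes, which have no probe set under their names, was not tested. The call ended with a replicate block, against a 2-fold change, without wild type KCl replicate 3, without mutant KNO3 replicate 1 and without both mutant samples numbered 3. The 2 mutant groups overlap, and all 6 mutant samples lie below the wild-type means.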

How the results depend on the processing

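The count of 1165 probe sets lay within 1.5 times of itself in 8 alternatives, from 838 in a fit of the mutant samples alone to 1236 with a random block for salt and number. Array quality weights raised it to 1822, and a test against a 2-fold change lowered it to 176, as its stricter hypothesis implies. Leaving out 1 of the 12 samples gave 720 (without mutant KNO3 replicate 1) to 1221 (without wild type KCl replicate 1). Leaving out both mutant samples numbered 3, an alternative chosen after seeing the data, gave 770, with fewer samples. The interaction, called for 1 probe set, was called for 2 with array quality weights, with median centring and with the random block, for 0 with the 2-fold test and without both samples numbered 3, and for 0 (without wild type KCl replicate 3 or mutant KNO3 replicate 1) to 2 (without replicate 1 under KCl or 2 under KNO3 of the wild type) when 1 sample was left out. The calls gained were of 247199_at and 260624_at, and the cause was not tested. Calls among list members numbered 68, against 12 with the 2-fold test, 48 to 70 when 1 sample was left out and 48 without both samples numbered 3. The 202 called probe sets followed through the alternatives were picked by the naming rule or for large changes. Of these, 172 stayed called in all 12 omissions, and 0 changed direction under any alternative. Of all 1165 called probe sets, 648 stayed called in all 12 omissions. Replicate numbers paired the salts weakly at most, since the deviations of same-numbered mutant samples correlated at -0.03, 0.14 and 0.23. Both samples numbered 3 nevertheless lay together on the second principal component. A replicate block gave 1080 calls for the mutant response and 0 for the interaction. Dim values limit what falls near or below the sample medians can show.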

Other observations

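Other genes with large changes, chosen after their values were seen, lay outside the lists above. HYH, a bZIP factor related to the light regulator HY5, stood at 4.75, 4.70 and 4.79 under KCl and at 7.22, 6.74 and 6.97 under KNO3 in mutant roots. It rose by 2.23 ± 0.14 (log2 change ± SE, adjusted p = 1.79e-06, limma), with no overlap between salts. AT5G52050, a MATE-family transporter, went from 3.37, 1.80 and 1.34 to 5.46, 5.19 and 5.86 (3.34 ± 0.47, adjusted p = 0.000996, limma), with the spread on the KCl side. AT1G66430, a fructokinase of plastids, rose by 2.24 ± 0.24, from a level of 1.94 ± 0.36 (mean ± SD, n = 3) that is under the sample medians.

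Neighbouring jacalin-type lectin genes rose together. AT1G52060 went from 1.78, 3.91 and 3.05 to 5.67, 5.13 and 5.90, AT1G52050 rose by 2.54 ± 0.44 and AT1G52070 by 1.75 ± 0.34 (adjusted p = 0.00549, 0.00453 and 0.00954, limma). In all 3 the KCl sample numbered 1 was the lowest, and no KNO3 sample overlapped the KCl samples. None of the 3 calls held when both mutant samples numbered 3 were left out, and that of AT1G52070 also ended without KNO3 replicate 1 (adjusted p = 0.0537). The paralogues may share probes, which was not tested.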
